A study of Triticum aestivum with 72 samples.

Results

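Line A35 is 1 of 36 wheat lines whose developing seeds were profiled on a 1-colour Affymetrix wheat array, and it is represented by 2 of the 72 arrays, those whose titles carry the name A35 (replicates 1 and 3). It was set against the other 35 lines, each with 2 arrays of its own, over all 61179 probe sets that are not Affymetrix controls. All lines belong to a mapping population of bread wheat (Triticum aestivum) from the cross RL4452 × AC Domain, and neither parent is among the arrays analysed here. All plants were grown in the field in rows of a lattice design with 3 replications, with no treatment that set lines apart. Spikes were tagged when their anthers showed, and seeds were frozen 5 days later. Polyadenylated RNA of whole seeds was labelled, so the lines differ in genotype only as far as the labels say, and each array reads a mixture of seed tissues. A35 stands for 1 genotype of this cross, and neither its alleles nor any trait of its grain was analysed here.

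A wheat seed a few days after anthesis is still mostly maternal pericarp around a young endosperm, and the bulk of starch and storage protein is laid down later. Lines of a cross inherit different combinations of parental alleles, so the level of a transcript can fall into classes that follow a segregating locus, and such a population is commonly used to map these loci. Bread wheat has 3 subgenomes with closely similar copies of most genes. A probe set can read more than 1 copy, or lose signal where an allele differs in sequence under its probes, and with summarised values such a loss and a lower transcript level cannot be told apart.

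The arrays of A35 resembled each other. Over the 10 percent most variable probe sets, each was the other's nearest array, with a Pearson correlation of 0.944 across probe sets, as a description over features that share the same arrays. This was so of both arrays in 8 lines and of 1 array in 6 lines, while in 22 lines neither array was nearest to its partner. In the other lines the correlation between the 2 arrays of a line ran from 0.741 to 0.967, with a median of 0.898. Whether any array is labelled wrongly was not tested. Those 22 lines, called unmatched below, are part of the comparison group. Counts without them are given beside the main counts. The log2 medians of the A35 arrays, 5.40 and 5.35, lay within the 5.31 to 5.44 of the other arrays. The log2 ratio of 3′ to 5′ control probe sets, a sign of RNA integrity, was 1.09 and 1.12, within a range of 0.51 to 1.79 in the others. The arrays of A35 were hybridised on different days, each together with 5 or 6 arrays of other lines.

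Seed transcripts of A35 differed from the mean of the other lines at 40 probe sets, of which 30 rose and 10 fell (limma with 1 mean per line, Benjamini-Hochberg adjusted p under 0.05). These are 0.0654% of the probe sets tested, with 0.049% higher and 0.0163% lower. Among the named genes only Wx-A1, a starch synthase gene, and LOC780602 passed, and both fell. The falls had a median difference of -2.10 on the log2 scale, and 7 of the 10 were of at least 1 log2 unit. The rises had a median difference of 1.04, and 18 of the 30 were of at least 1 log2 unit. The mean signal of the other lines was under 6 for 22 of the 30 rises and for 58.5% of all probe sets. A probe set near the lower end of the signal range has little room to fall, so no such share is given for the falls. In 24 of the 30 rises the replicate 3 array read higher than the replicate 1 array, against 29655 of all 61179 probe sets. It also read higher in 8 of the 10 falls, so in those 8 replicate 1 lay farther from the other lines. At an unadjusted p under 0.05, 5641 probe sets stood apart.

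**Figure D1:**
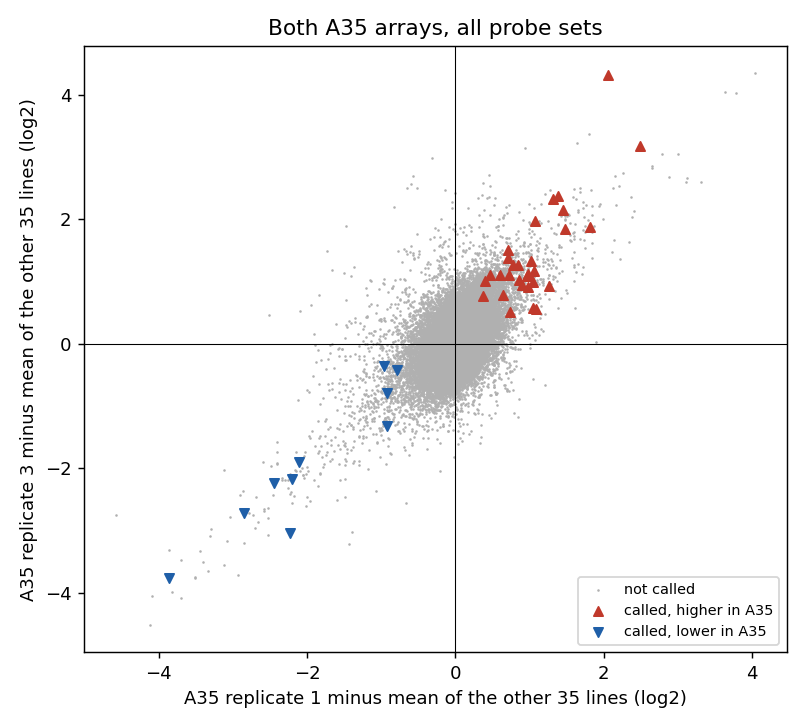
Difference of each A35 array from the mean of the other 35 lines for all 61179 probe sets (log2; replicate 1 on the horizontal axis, replicate 3 on the vertical axis), with the 30 called rises as red triangles and the 10 called falls as blue triangles. Called probe sets lie away from the origin on both arrays, and some grey points lie as far out without passing the test.

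The size of this count depended on the array pairs behind it. With the 22 unmatched lines left out, the same test called 593 probe sets, 343 higher and 250 lower, and the 40 were all among them. This exclusion was chosen after the data were seen and picks lines for their agreement, which by itself lowers the spread. When each line gave 1 value, so that the spread between lines set the error, 2 probe sets passed, both of them falls (0.00327% of those tested). All 40 differences had the same direction within the day of each A35 array. The same A35 values had chosen these probe sets, so this is a description and no separate support. Both A35 arrays also lay on the same side of the mean of the other lines in all 40. A call on the mean of the same 2 arrays favours this, so it too is no separate support. The share over all probe sets was 61.4%. With hybridisation day as a block, 15 probe sets passed, of which 11 were among the 40. On the replicate 3 array alone 33 probe sets passed, 12 of them among the 40. On replicate 1 alone 4 passed, all among the 40. In fits with 1 A35 array the spread comes only from the other lines, and the lone array is assumed to vary as theirs do.

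A35 was not the line farthest from the rest. The same test, run for each line in turn, called from 0 to 966 probe sets, with a median of 2 and 11 lines at 0, and A35 ranked 10th. Both A35 arrays lay outside the range of the 35 other line means at 1384 probe sets, 2.26% of all, with 1010 above (1.65%) and 374 below (0.611%). For the 36 lines this count ran from 149 to 3413, with a median of 714.5, and A35 was again 10th. Both arrays lay beyond each of the 70 other arrays at 78 probe sets (0.127%), with 56 above (0.0915%) and 22 below (0.036%). Over the lines this stricter count ran from 2 to 267 with a median of 38, and A35 was 8th. Without the 22 unmatched lines the counts were 3706 and 612, as a smaller group has a narrower range. Of the 1384 probe sets, 73.0% lay above the range, and after centring each array on its median this share was 58.4%.

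**Figure D2:**
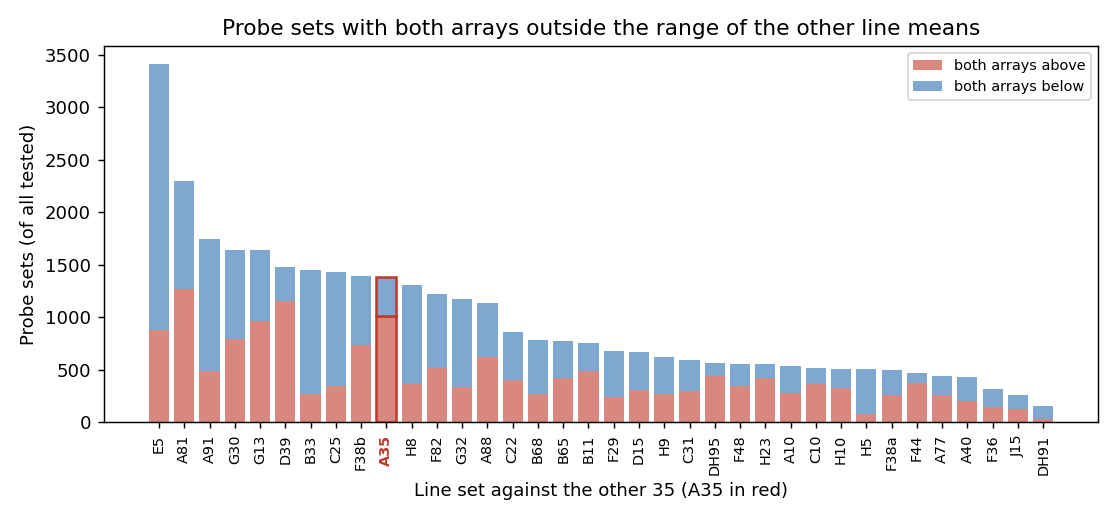
Number of probe sets, of 61179, at which both arrays of a line lay above (red) or below (blue) the range of the other 35 line means, for each of the 36 lines in order of the total. A35, outlined, has 1010 above and 374 below and is 10th.

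The widest separations from all other arrays were falls of a pair of probe sets without a gene symbol here. Ta.94.1.S1_at read 7.80 and 8.02 on the A35 arrays (log2 intensity throughout), while the 35 other line means ran from 9.97 in F29 through a median of 10.26 to 10.48 in F82. The lowest of the 70 other arrays was at 9.83, so a gap of 1.82 with no array in it separated A35 from the rest. The difference was -2.34 (SE 0.14, limma adjusted p = 2.27e-14), a level 5.06-fold lower. Ta.25113.1.S1_at read 6.82 and 6.01, against line means from 8.65 in F38a through a median of 9.09 to 9.48 in C10. Here too every other array, the lowest at 8.47, was above both A35 arrays, with a gap of 1.65. The difference was -2.64 (SE 0.19, limma adjusted p = 3.76e-12).

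These were the only probe sets that passed with 1 value per line, with limma adjusted p = 1.79e-15 for Ta.94.1.S1_at and 3.74e-11 for Ta.25113.1.S1_at. They passed in every alternative run, on each A35 array alone and in all 70 fits that left out 1 other array. Against the arrays of the same day, Ta.94.1.S1_at was lower by -2.41 on the day of replicate 1 and by -2.44 on that of replicate 3. For Ta.25113.1.S1_at the same differences were -2.31 and -2.80. In bulk seed, fewer cells of a type and less RNA per cell cannot be told apart for these or any other differences.

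Another probe set without a symbol, Ta.9618.1.S1_at, also lay below all other arrays. It read 8.52 and 8.64, against line means from 8.96 to 9.70 and a lowest other array at 8.81. The fall was smaller, with a difference of -0.85 (SE 0.16, limma adjusted p = 0.0132). With the day as a block it still passed (limma adjusted p = 0.0067).

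**Figure D3:**
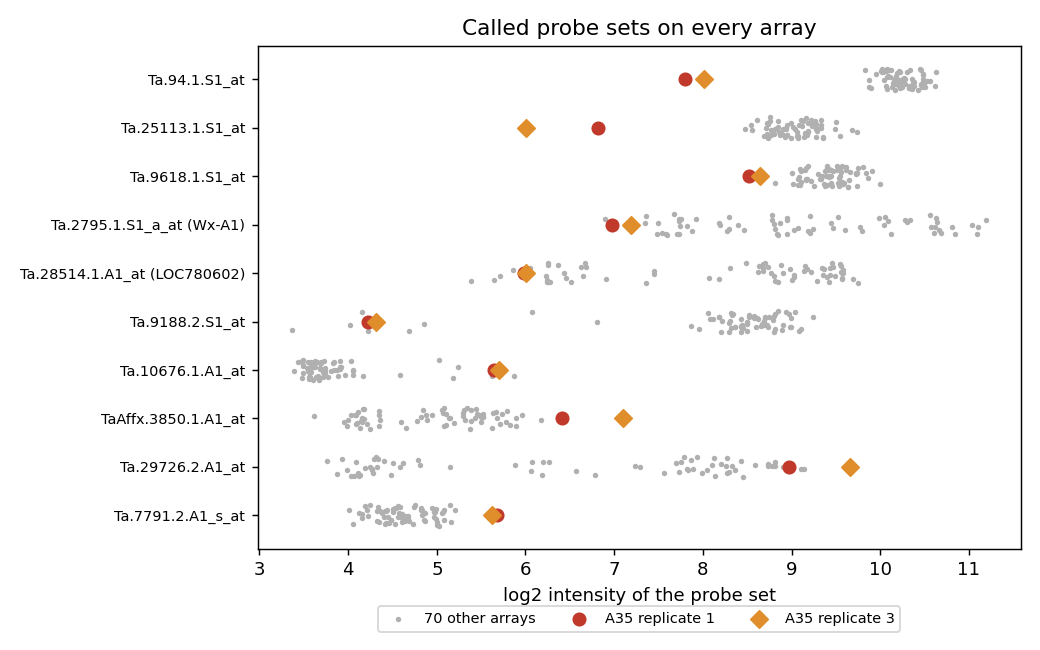
Log2 intensity of 10 called probe sets on all 72 arrays, with the 70 other arrays as grey points, A35 replicate 1 as red circles and A35 replicate 3 as orange diamonds. The probe sets Ta.94.1.S1_at and Ta.25113.1.S1_at show A35 far below a tight group, while for Wx-A1, LOC780602 and Ta.29726.2.A1_at the other lines themselves are widely spread.

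Wx-A1 (LOC543395, also named GBSS-I), the gene of the enzyme that builds amylose inside starch granules, had its lowest line mean in A35. Its probe set Ta.2795.1.S1_a_at read 6.98 and 7.19, a mean of 7.08. The other line means ran from 7.47 in J15 through a median of 8.80 to 10.95 in A81. Both A35 arrays lay below all other line means, but 1 other array, of F38a at 6.90, was lower. The difference from the mean of the other lines was -2.00 (SE 0.37, limma adjusted p = 0.0141), a level 4.00-fold lower. That A35 was lowest here was known from earlier results of these data and is part of why the gene is described.

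The levels of Wx-A1 formed a graded series over the other lines. No step between neighbouring line means was wider than that from A35 to J15. J15 stood next above A35 with arrays at 7.35 and 7.59, neither of which overlapped the A35 arrays. Above it A77 had a mean of 7.49, H10 7.56, F38a 7.58 and A88 7.61, which is close together beside the spread of the arrays. The nearer A35 array lay 0.29 below the lowest other line mean. All 70 fits without 1 other array passed, with a highest adjusted p of 0.0191 (limma). With the day as a block it did not pass (limma adjusted p = 0.213), and the differences within the days were -2.70 and -0.93. On the day of replicate 3 the 6 other arrays ran from 6.90 to 10.04, so A35 was not the lowest there. Without the unmatched lines the adjusted p was 8.07e-05 (limma).

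**Figure D4:**
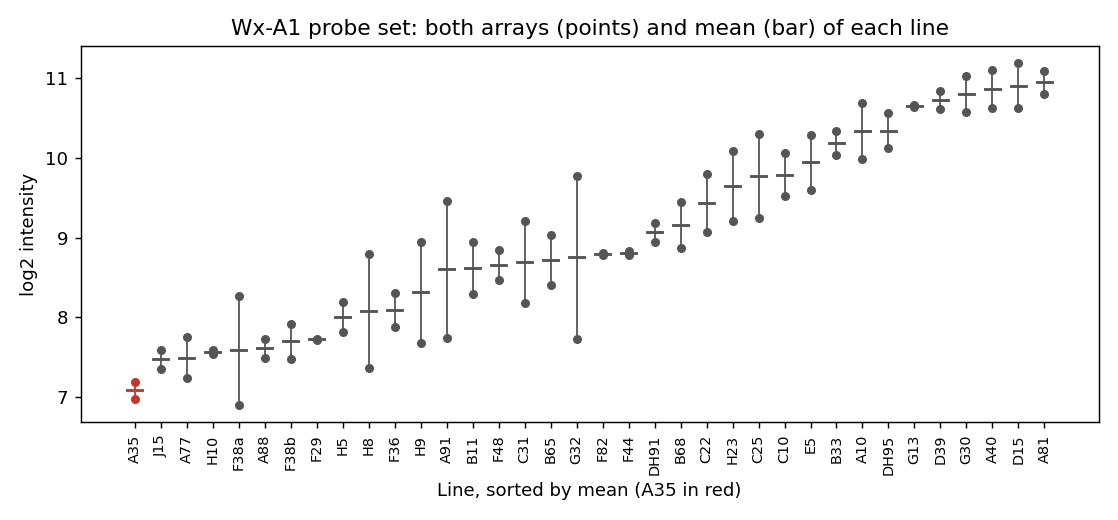
Log2 intensity of the Wx-A1 probe set in the 36 lines, sorted by line mean, with both arrays as points joined by a line and the mean as a bar. A35, in red at the left, has the lowest mean (7.08), and the other line means rise gradually from 7.47 in J15 to 10.95 in A81.

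The other falls were not beyond all other arrays. Ta.9188.2.S1_at showed the largest fall of all calls, with 4.22 and 4.31 on the A35 arrays against a mean of 8.08. Most lines lay at 7.57 or above, while A10 was lower than A35 at 3.76, and A81 (4.77), A88 (5.22), A40 (6.26) and F36 (6.34) lay between. The difference was -3.81 (SE 0.56, limma adjusted p = 0.00044). Ta.9188.2.S1_x_at, which shares its cluster number, differed by -2.79 (limma adjusted p = 0.000374), with A35 at 5.45 just below A10 at 5.47, and Ta.9188.1.S1_at read 4.73 and 4.58 against a mean of 4.66.

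LOC780602, whose product is not named in the tables used here, read 5.98 and 6.01 on Ta.28514.1.A1_at. Its line means ran from 5.68 in A10 through a median of 8.81 to 9.57 in C10, and A35 was lowest but for A10 and B68. A35 was part of a low group, since H10, F48, F29, A81, G13, H23, B65 and B33 lay from 6.24 to 6.85. The next line up was C22 at 7.36. The difference was -2.19 (SE 0.46, limma adjusted p = 0.0415), and it passed in 55 of the 70 fits without 1 other array. With the day as a block the adjusted p was 0.0954 (limma). The gene's other probe sets differed by -0.58 and -0.56, and neither passed (limma adjusted p = 0.564 and 0.561). Ta.5881.1.A1_at read 5.85 and 5.45 against line means from 5.72 to 7.56, a difference of -1.13 (limma adjusted p = 0.0093). Ta.5227.1.S1_at read 8.97 and 9.57, a difference of -0.66 (limma adjusted p = 0.0331), with -0.60 for the related Ta.5227.1.S1_x_at. These had the lowest line mean in A35 with arrays of other lines overlapping it, and the other probe sets of that cluster number differed by -0.10 and 0.08.

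Of the 30 rises, 28 had their highest line mean in A35, 21 lay with both arrays above all other line means and 6 above all other arrays. None carries a gene symbol here, so they are given by probe set. TaAffx.3850.1.A1_at rose most among those above all other arrays, with 6.41 and 7.10 against line means from 3.88 in G30 to 5.89 in F38a and a highest other array at 6.18. The difference was 1.80 (SE 0.27, limma adjusted p = 0.000467), and with the day as a block the adjusted p was 0.0915 (limma).

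Ta.7791.2.A1_s_at had the widest empty interval of any rise, behind only the 2 falls above among all probe sets. It read 5.68 and 5.62, the highest other array lay at 5.20, and the gap was 0.42. The difference was 1.02 (SE 0.20, limma adjusted p = 0.0288), while probe sets of the same cluster number differed by -0.10 and 0.01. The other rises beyond all arrays were 1.12 for TaAffx.91670.1.A1_at, 0.95 for TaAffx.12673.1.A1_at, 0.95 for Ta.25812.1.A1_at and 0.62 for Ta.24195.2.S1_at, with limma adjusted p = 0.0415, 0.0331, 0.0288 and 0.0253. Their gaps to the next array were narrow, from 0.02 for Ta.24195.2.S1_at to 0.14 for Ta.25812.1.A1_at.

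The rise with the smallest adjusted p was one that a few other lines shared. Ta.10676.1.A1_at read 5.64 and 5.70, and the line means of C22 (5.32), F48 (5.23) and A81 (5.21) lay just below. The remaining 32 lines lay from 3.44 in A10 to 4.04 in B68, so these 4 lines stood apart from the rest. The difference was 1.85 (SE 0.16, limma adjusted p = 4.20e-10). It passed on each A35 array alone and with the day as a block, though not with 1 value per line (limma adjusted p = 0.268).

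Other large rises lay within a wide spread of lines. Ta.29726.2.A1_at read 8.97 and 9.66, with line means from 4.06 in H10 to 8.84 in A40 (difference 2.84, SE 0.46, limma adjusted p = 0.0017). A35 was the highest line, yet the lines fell into a low and a high range, and A35 sat at the top of the high one. The related Ta.29726.1.A1_s_at differed by 1.27 and did not pass (limma adjusted p = 0.319). Ta.23271.1.S1_s_at had the largest rise, 3.19 (SE 0.67, limma adjusted p = 0.0415), but its A35 arrays were far apart, at 6.65 and 8.92, and A81 (9.40), A88 (8.51) and B68 (8.36) had higher means. The other probe sets of its cluster number differed by -0.12, 0.04 and 0.04.

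Some rises came as groups of probe sets with 1 cluster number. Ta.24195.2.S1_at and Ta.24195.3.S1_at both rose, by 0.62 and 1.03, and Ta.24195.1.A1_at differed by 1.61 with limma adjusted p = 0.0701. Ta.28441.1.S1_x_at rose by 1.82, with a difference of 1.71 for Ta.28441.1.S1_at (limma adjusted p = 0.0537). Ta.24564.3.S1_x_at rose by 1.05, and the other probe sets of its cluster number differed by 1.26, 1.28 and 1.82 without passing. Ta.4516.1.A1_at rose by 1.03, beside 1.06 for Ta.4516.2.S1_at (limma adjusted p = 0.0793). In contrast Ta.519.1.A1_at rose by 1.18 while its cluster partners differed by 0.18 and 0.25. Probe sets of 1 cluster number may read the same transcript and are not independent of each other.

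The remaining rises ran from 0.57 for TaAffx.40589.1.A1_at to 1.88 for Ta.25973.1.A1_at. Among them Ta.13915.1.S1_at (4.92 and 5.35 against a mean of 4.08) differed by 1.06 with limma adjusted p = 7.57e-05, and Ta.577.1.A1_at (9.52 and 9.91 against 8.80) by 0.92 with limma adjusted p = 0.0011. Ta.9037.1.S1_at read 6.27 and 5.94 against 5.01 (SE 0.18, limma adjusted p = 0.0032). The line means of A81, C22, F48, B65 and H10 lay close below, from 5.98 down to 5.85, so this level was not particular to A35. In 7 of the 40 called probe sets the line mean nearest to that of A35 was of A10, and in 5 it was of F38a, with 16 lines in all taking this place.

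Many probe sets had both A35 arrays outside the range without passing. Ta.7259.2.S1_a_at read 4.65 and 4.63, below all other arrays (lowest 4.70), and differed by -1.81 (SE 0.55, limma adjusted p = 0.234). Its line means rose from 4.85 in F36 to 8.44 in F29, so A35 lay at the edge of a low group and not apart from it. Ta.7259.1.S1_a_at, of the same cluster number, read 3.94 and 4.26, with 25 other arrays beyond the nearer of these, and was not outside the range. Ta.18520.1.A1_at read 9.55 and 9.33, above all other arrays (highest 9.27), with a difference of 1.74 (limma adjusted p = 0.130). Ta.14220.1.A1_at read 8.59 and 8.97, a gap of 0.28 above the next array, and narrowly did not pass (difference 1.13, limma adjusted p = 0.0536).

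Large differences alone did not make a call. Of all probe sets, 650 differed by at least 1 log2 unit, and 25 of the 40 calls were among them. The largest difference, chosen after its value was seen, was -4.31 for TaAffx.113846.1.S1_s_at, with 4.75 and 4.34 on the A35 arrays against 8.86 in the others (SE 1.56, limma adjusted p = 0.351). The largest upward, Ta.3017.1.S1_at, chosen likewise, read 11.50 and 11.81 against 7.46 (SE 1.39, limma adjusted p = 0.284). For both, arrays within the other lines differed so much that the SE exceeded 1 log2 unit.

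Of the 1273 probe sets with 1 gene symbol, 18 had both A35 arrays outside the range of the other line means. These 18 are a smaller share than the 2.26% of all probe sets outside that range. They lay above in 10 cases and below in 8, and only Wx-A1 among them passed. XIP-I (LOC542997), a xylanase inhibitor, read 9.08 and 9.18 on Ta.1200.1.S1_x_at against line means from 9.22 to 10.19 (difference -0.56, limma adjusted p = 0.564). Its other probe set, Ta.1200.1.S1_at, was inside the range, with 10.15 and 10.08 against line means from 10.07 to 11.02 (difference -0.36). LOC543256 read 8.89 and 8.63 against line means from 9.02 to 10.65 (difference -0.98, limma adjusted p = 0.143). Upward, LOC543418 read 9.80 and 10.04 against line means up to 9.66 (difference 1.04, limma adjusted p = 0.651), and LOC780686 read 7.45 and 7.40 against line means up to 7.14 (difference 0.59, limma adjusted p = 0.272). For all 4, at least 1 other array overlapped the A35 arrays.

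Gene lists drawn from the symbols and synonyms held 170 probe sets of 84 genes, of which 1, Wx-A1, passed, against 0.0654% of all probe sets. The median difference of all probe sets was 0.0017. In the starch and fructan list 2 of 7 probe sets were higher in A35 and the median was -0.14. AGP-S (LOC543299), a subunit of the enzyme that makes ADP-glucose for starch, read 11.26 and 11.41 against 11.19 and did not pass (limma adjusted p = 0.832). BMY1 (LOC543318), a beta-amylase, read 12.52 and 12.61 against 12.71. The 6-FEH gene (LOC780575), a fructan exohydrolase, had the largest upward value of this list, 10.14 and 10.21 on Ta.9641.1.A1_a_at against 9.87 (difference 0.30, limma adjusted p = 0.782). Its other probe sets went the other way, by -0.07 on Ta.30950.1.A1_x_at and -0.35 on TaAffx.93410.1.S1_at.

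Storage protein genes, markers of filling endosperm, were low in A35 as in the other lines. Their 17 probe sets had a median level of 3.95 in A35 and 4.07 in the others, 5 of 17 were higher in A35 and none passed. The highest level was that of the avenin-like gene LOC100125692 on Ta.27777.1.S1_at, with 10.38 and 10.61 against 10.38. Its other probe sets, Ta.27712.1.S1_at, Ta.27777.1.S2_at and Ta.27777.1.S2_s_at, had low means of 4.82, 3.74 and 5.69 in the other lines. They differed by -0.07, -0.08 and -0.08.

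In the photosynthesis list 13 of 36 probe sets were higher in A35 and none passed, but 28 of the 36 read 1 gene, rbcL (LOC100049018), the large subunit of Rubisco. All 13 higher ones were among these 28, of which 24 had a mean signal under 6 in the other lines, and their median difference was -0.01. The 8 probe sets of the other 5 genes were all lower in A35, by -0.01 to -0.64 with a median of -0.34, and none passed. PsbP (LOC543290), a protein of photosystem II, read 8.77 and 8.58 against 9.32 on TaAffx.120874.1.S1_x_at (difference -0.64, limma adjusted p = 0.527). Its other probe set, Ta.85.1.S1_at, read 11.91 and 12.03 against 12.26 (difference -0.29, limma adjusted p = 0.599). FBP, the gene of a fructose bisphosphatase, read 8.70 and 8.99 against 9.41 on Ta.439.1.S1_at (difference -0.57, limma adjusted p = 0.270). petC, the Rieske protein of the cytochrome complex, read 12.08 and 11.97 against 12.39 on Ta.861.1.S1_at (difference -0.37, limma adjusted p = 0.314). For each of these the A35 values lay within or overlapped the range of the other lines.

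Defence and antioxidant genes had 1 of 16 probe sets higher in A35, with a median of -0.27, and none passed. The 1 higher was WGA2 (LOC543494), a wheat germ agglutinin, with a difference of 0.05. Prx1 (LOC606328), a peroxidase listed also as TaPrx1, read 9.97 and 9.92 against 10.53 on Ta.6572.1.S1_a_at (difference -0.59, SE 0.26, limma adjusted p = 0.473), and B33 was lower still, while its other probe sets differed by -0.19 to -0.45. Catalase CAT1 read 7.61 and 8.09 against 8.40 on Ta.442.1.S1_at, and the lipid transfer protein gene LTP3 (LOC543095) 13.23 and 13.23 against 13.76 (limma adjusted p = 0.432 and 0.268). The count was also 1 of 16 after median centring and after quantile normalisation. These probe sets stand for 8 genes and share arrays, so the like sign is a description.

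Cytoskeleton and chromatin genes leaned the other way, with 25 of 32 probe sets higher, a median of 0.07 and none passing. Their median level in the other lines was 12.22, and all probe sets with a mean log2 of at least 6 had a median difference of 0.04. The 32 probe sets stand for 13 genes and share arrays, so the like sign is a description. The histone gene H2A-3 (LOC732713) differed by 0.30 (SE 0.26) on Ta.27192.1.S1_s_at and by -0.07 (SE 0.17) on Ta.27192.1.S1_at. Neither passed, and profilin (LOC543315), an actin-binding protein, read 11.92 and 11.89 against 12.16 on Ta.5057.1.S1_x_at, with a difference of 0.02 on Ta.5057.3.A1_at. In the embryo and abscisic acid list 8 of 10 were higher and none passed. Rab15 (LOC543293), a dehydrin, was the highest of them with 6.71 and 6.77 against 6.16 on Ta.2704.1.S1_x_at (difference 0.58, limma adjusted p = 0.424). All 4 probe sets of the gibberellin 20-oxidase genes were lower, from -0.11 to -0.43, and none passed.

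Inhibitor and thionin genes had 3 of 19 probe sets higher, with a median of -0.17, and translation genes 3 of 9. The lowest translation gene was RPS29 (LOC606342), a ribosomal protein, at 4.47 and 4.68 against 5.37 on Ta.24254.3.S1_x_at. It differed by -0.05 on Ta.30687.2.S1_x_at. Highest in that list was Eif4B (LOC543417), with a difference of 0.29 (limma adjusted p = 0.665). The small heat shock gene hsp16.9A (LOC543277) read 4.62 and 5.04 against a mean of 6.77, but the other line means ran from 4.25 to 12.47 (difference -1.94, SE 1.65, limma adjusted p = 0.777). FKBP70 (LOC543314), the other gene of the heat shock list, differed by 0.30 (limma adjusted p = 0.844). TaGlu1a (LOC780595), a beta-glucosidase, read 7.82 and 6.52 against 8.90 (difference -1.72, SE 0.50, limma adjusted p = 0.212), and 4 lines had lower means. The transcript of XTH, a cell wall enzyme, read 10.88 and 10.30 against 10.35, and TBP1, the TATA-binding protein, 9.41 and 9.82 against 9.28. In the transcription list WZF1 (LOC543182) went the other way from TBP1, with a difference of -0.515 (limma adjusted p = 0.9235). Markers of anthers, the raftin genes, were added to the lists after the data were seen, and 2 of 4 probe sets were higher, with levels in A35 from 3.58 to 5.57.

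**Figure D5:**
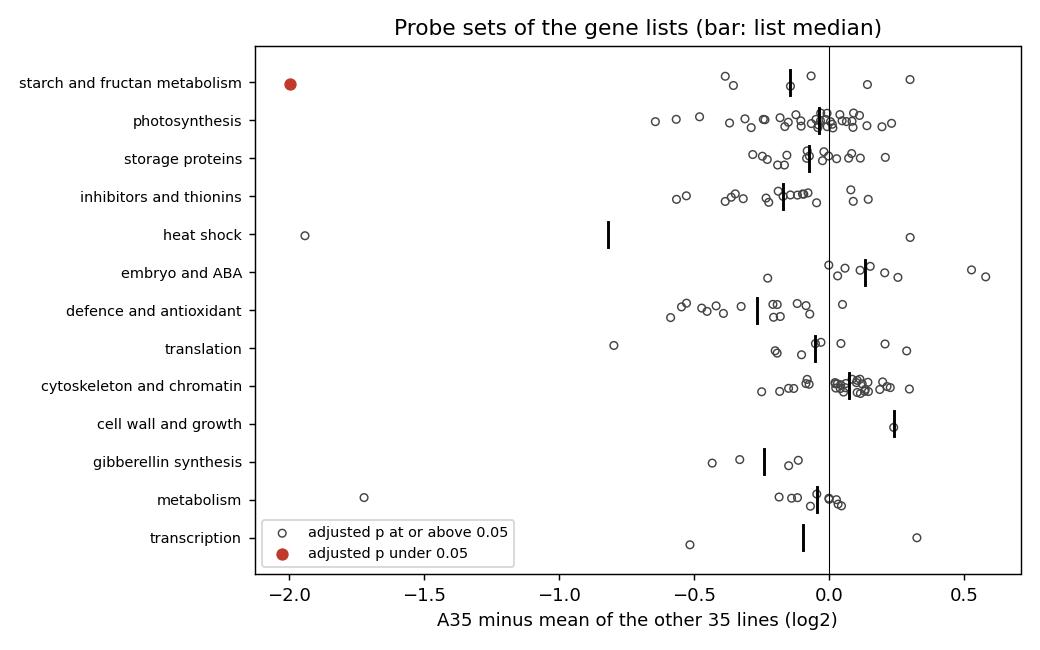
Difference of A35 from the mean of the other 35 lines (log2) for the probe sets of 13 gene lists, with open circles for those that did not pass, a filled circle for the 1 that did (Wx-A1, at -2.00) and a bar at each list's median. List medians lie between -0.82 for the 2 heat shock probe sets and 0.24 for the 1 cell wall probe set.

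To see how far a pattern on 1 A35 array was met on the other, probe sets were chosen on 1 array and looked up on the other. The replicate 1 array of A35 lay outside the range of the other replicate 1 arrays at 1455 probe sets. On the replicate 3 array 78.2% of these shifted the same way and 266, or 18.3%, were again outside the range on the same side. Of all probe sets, 10.3% were outside on that array on either side. Shares on the same side and on either side are unlike measures, so neither is a background for the other. Chosen on replicate 3, 6320 probe sets gave 79.2% in the same direction and 4.21% again outside on the same side. Of all probe sets, 2.38% were outside on replicate 1 on either side. For the other lines with replicates 1 and 3, the share again outside on the same side was taken likewise. Chosen on replicate 1, it ran from 0.577% to 17.5% with a median of 3.05%. A median of 4.29% of all their probe sets lay outside on either side on the second array, against 10.3% in A35. Chosen on replicate 3, the other lines' share on the same side ran from 0.477% to 13.2% with a median of 3.51%, and A35 was 14th of 35. Chosen on replicate 1, the same direction held in 30.7% to 79.3% of their probe sets, with a median of 56.8%. Over all probe sets both A35 arrays lay on the same side of the mean of the other lines in 61.4%. The 2 arrays differ in spread, with an SD of the differences of 0.28 on replicate 1 and 0.38 on replicate 3.

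Probe sets at the edge of the range rule differ by fractions of the array spread. Just outside, TaAffx.86482.4.S1_s_at read 3.63 and 3.62 against a highest line mean of 3.62, TaAffx.98797.2.S1_at 3.44 and 3.49 against a lowest of 3.49, and Ta.17766.1.S1_a_at 8.13 and 8.00 against a lowest of 8.13. Just inside, Ta.19370.1.S1_at read 3.35 and 3.39 against a highest of 3.35, Ta.5575.1.S1_at 3.95 and 3.91 against 3.91, and Ta.10279.3.A1_at 3.77 and 3.80 against a lowest of 3.80.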

How the data were processed

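The 72 arrays were grouped by the line in their titles. The deposited values are 1 intensity per probe set on a linear scale. Per the submitters' processing notes the tool was RMA (no version), and nothing used here says whether the authors summarised all arrays in 1 run. Log2 is the usual scale of RMA output, and these deposited values are linear. Each array also has a deposited text record of its run, from which only the hybridisation day was taken. Log2 was taken of the deposited intensities with a pseudocount of 0, 111 control probe sets were left out, and no filter on low values was applied. The number of arrays limits the precision.

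The mean of A35 minus the average of the 35 other line means was tested with limma 3.58.1 in R 4.3.3 (1 mean per line, 36 residual degrees of freedom, Benjamini-Hochberg adjustment over 61179 probe sets, adjusted p under 0.05). The labels call the replicates biological. The error behind the p-values of this test is the spread between the 2 arrays within a line, and not the spread between lines. The code was tested on simulated data. Range counts carry no test. A probe set's gene comes from the supplied annotation, which gives 1 symbol to 1273 probe sets and none to the other 59906. All 771 genes were found in the supplied RefSeq table. No coordinates or sequences are printed, since the build behind the array's annotation is not named and no sequence table was used here.

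The members and gene lists were chosen with earlier results of these data known. The genes named are Wx-A1, probe sets with a symbol that passed and the largest rises and falls beyond all arrays. The 3 widest gaps and the 3 probe sets on each side of the range rule are named too. So are extremes of the gene lists, though not every list has both printed. Every other probe set named, with those that share a cluster number, was chosen after its values were seen. Alternatives were median centring, quantile normalisation, a pseudocount of 16, a floor on mean log2 of 6, blocks for replicate number and day, the 3′ to 5′ ratio of 7 control genes, 1 value per line, the 70 arrays as replicates, each array left out, and the unmatched lines left out.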

Additional observations from a re-analysis of the deposited data

How the results depend on the processing

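The count of 40 calls (30 rises and 10 falls) moved with the processing, and no called probe set changed direction in any alternative run. Quantile normalisation gave 23 (15 rises), a pseudocount of 16 gave 76 (66 rises), probe sets with a mean log2 of at least 6 gave 17 (8 rises), and hybridisation day as a block gave 15 (7 rises). With 1 value per line 2 passed (0 rises, 2 falls), with the 70 other arrays as replicates 4 passed (2 rises, 2 falls), and without the unmatched lines 593 passed (343 rises, 250 falls). Median centring gave 32 and the 3′ to 5′ ratio as a covariate 38. Leaving out 1 array at a time gave from 4 to 64 calls, from 1 to 51 rises and from 3 to 13 falls. The lowest count, 4 with 1 rise and 3 falls, was without A35 replicate 3, and 33 with 5 falls passed without A35 replicate 1. The highest, 64 with 51 rises, was without F38a replicate 3, and 46 rises passed without B65 replicate 3. The counts outside the range of line means (1384) and of all arrays (78) were 665 and 42 with a mean log2 of at least 6, and 3706 and 612 without the unmatched lines. The first was 671 with the day as a block. Both counts need both A35 arrays and have no value without one. The share above the range was 73.0%, and 58.4%, 65.1% and 57.4% with median centring, quantile normalisation and the day block. Replicate numbers were not treated as pairing the samples, since the correlation of deviations between lines was over 0.1 in 229 of 595 pairs of lines and not in all (lowest -0.66, median 0.04, highest 0.625). The replicate block gave 59 calls with 46 rises, and 133 probe sets outside all arrays. The cause of these shifts was not tested. The precision of every value is limited by 2 arrays per line.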
